A study of Mus musculus with 12 samples.

Results

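The Nr4a nuclear receptors are Nr4a1, Nr4a2 and Nr4a3, and their mRNA was followed across the 4 conditions of an RNA-seq experiment in MIN6 cells. They were taken by gene name, as 3 of the 54022 genes in the count and FPKM tables. MIN6 is an insulin-secreting line from an insulinoma of a mouse carrying a viral T antigen transgene, so it stands in for a β-cell but is a proliferating tumour line. The labels give the genotype of all samples as WT. Each culture received vehicle or TMAO (trimethylamine N-oxide, a metabolite made from dietary choline) at 100 nM for 18 h. The cells were then stimulated with low (2.8 mM) or high (16.8 mM) glucose, after a fast shown in the study's scheme, which gives no length for the stimulation. There were 3 biological replicates of each condition: low glucose with vehicle, low glucose with TMAO, high glucose with vehicle, and high glucose with TMAO. The comparisons asked how glucose and TMAO act on β-cell gene expression.

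The Nr4a genes encode orphan nuclear receptors: transcription factors with the zinc-finger DNA-binding domain and the ligand-binding fold of steroid receptors, but with a ligand pocket filled by bulky side chains. They are regulated mainly by how much mRNA and protein a cell makes. Nr4a1 is also called Nur77, Nr4a2 Nurr1 and Nr4a3 Nor1, and all bind the NBRE element as monomers. As immediate-early genes they are transcribed within minutes of a rise in cAMP or calcium, without new protein synthesis, largely through the factor CREB and its CRTC coactivators at cAMP response elements (CREs). In β-cells, glucose metabolism opens voltage-gated calcium channels, which is one route to that calcium signal.

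The promoter stretches below are shown because all 3 genes moved together with glucose and because CREB recognises the core letters TGACG. They come from RefSeq on GRCm38.p6, all 3 members having an entry in the table, and each runs from 10 bases before the first match of that core to 10 bases after the last. Capitals mark TGACG, or CGTCA where the match is on the other strand, and letters are written 5′ to 3′ on the gene's own strand. The Nr4a1 stretch is chr15:101266603-101266820 on the plus strand, that of Nr4a2 is chr2:57124100-57124213 on the minus strand, and that of Nr4a3 is chr4:48045064-48045172 on the plus strand.
Nr4a1: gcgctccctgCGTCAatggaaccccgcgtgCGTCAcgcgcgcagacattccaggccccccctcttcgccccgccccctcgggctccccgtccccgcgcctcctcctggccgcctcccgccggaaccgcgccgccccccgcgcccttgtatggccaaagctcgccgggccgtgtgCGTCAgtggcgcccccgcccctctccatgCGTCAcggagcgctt
Nr4a2: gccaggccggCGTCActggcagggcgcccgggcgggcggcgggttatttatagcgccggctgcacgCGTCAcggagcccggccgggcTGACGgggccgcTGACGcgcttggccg
Nr4a3: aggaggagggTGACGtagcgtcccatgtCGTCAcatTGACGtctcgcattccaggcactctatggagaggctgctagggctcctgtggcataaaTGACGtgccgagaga

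Each of the 3 promoters held 4 matches to TGACG or its reverse complement within the window from 250 bases before to 50 bases after the RefSeq start. Counted by the leftmost base from the start, those of Nr4a1 lay at -233, -213, -69 and -40. In Nr4a2 they lay at -200, -144, -123 and -111, and in Nr4a3 at -231, -213, -205 and -147. Of 32851 RefSeq promoter windows of the same length, 20.8% held at least 1 such match and 0.231% held at least 4, where an uninterrupted TGACGTCA counts as a match on each strand. That uninterrupted CRE was in none of the 3 windows and in 1.79% of all windows. Neither the serum response element known as the CArG box, in 1.63% of all windows, nor the MEF2 site, in 0.557%, matched in any of the 3. The NBRE, written AAAGGTCA, also had no match in them and was in 1.51% of all windows. All 3 windows were rich in G and C, at 72.3% for Nr4a1, 81.7% for Nr4a2 and 64.7% for Nr4a3. The shares above are over windows of any make-up, and TGACG itself holds CG. How common 4 matches are among windows equally rich in G and C was not tested. Sites outside the window, or with letters that depart from these patterns, were not looked for. A match is a description of letters, and binding was not measured.

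In the deposited annotation, Nr4a1 (ENSMUSG00000023034) spans chr15:101266846-101274792 on the plus strand with 2474 exonic bases. Nr4a2 (ENSMUSG00000026826) spans chr2:57106830-57124003 on the minus strand with 4059, and Nr4a3 (ENSMUSG00000028341) spans chr4:48045153-48086447 on the plus strand with 5987. All are protein-coding, and no other gene of the tables overlaps any of them. GENCODE M21, also on GRCm38, has the same limits for Nr4a2 and Nr4a3, but starts Nr4a1 upstream at 101254269, so transcripts beginning there are counted only over the exons they share with the shorter gene. The RefSeq start of Nr4a3 lies inside its deposited gene, downstream of the annotated first base.

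Counted fragments added up to 16793162 in the smallest and 22340542 in the largest library. Nr4a3 was counted on 21 to 36 fragments in the low-glucose libraries, and the other members on at least 98. β-cell identity was checked with 10 markers: their summed level was 41000 to 48500 FPKM (fragments per kilobase of exon corrected for library size), led by Ins2, and none was at 0. With vehicle 2 of them, Mafa and Neurod1, rose with glucose, and with TMAO 1 did, beside 1.99% and 2.0% of all tested genes called higher. Of 6 markers of other islet cells, only Gcg, the glucagon gene of α-cells, was above 2 FPKM as a mean over libraries, at 216. Hhex, which defines δ-cells, was at 0 in every library. That list summed to 201 to 218 FPKM in low glucose and 224 to 230 in high glucose, and the part of this in the results below was not tested. The 10 markers of exocrine, duct, immune, stromal and endothelial cells summed to 4.25 to 6.30 FPKM, with 3 of them (Krt19, Ptprc and Adgre1) at 0 in every library. In each of these other lists 3 genes were tested, and edgeR and DESeq2 called 0 in the glucose comparisons, with 1 at an unadjusted p under 0.05 in each. A count of 0 among 3 says little beside the 3.30% and 3.64% of all tested genes called. In RNA from whole cultures, fewer cells of a type and less RNA per cell cannot be told apart.

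All 3 Nr4a genes rose in high glucose, with vehicle and with TMAO, and none of the low- and high-glucose libraries overlapped. Of all tested genes, 9.08% were likewise higher without overlap in high glucose with vehicle, and 8.83% with TMAO. The fitted rises with vehicle and with TMAO were 8.61-fold and 7.84-fold for Nr4a1, 5.27-fold and 6.12-fold for Nr4a3, and 3.51-fold and 3.56-fold for Nr4a2. Here "with vehicle" and "with TMAO" name the treated cells in which high glucose was compared with low. Differences were tested with edgeR's quasi-likelihood test on the counts of all 12 libraries, and a gene was called at a Benjamini-Hochberg adjusted p under 0.05 over 16222 tested genes. With vehicle all 3 members were called higher, beside 1.99% of all tested genes. With TMAO all 3 were again called higher, beside 2.0% of all tested genes.

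**Figure D1:**
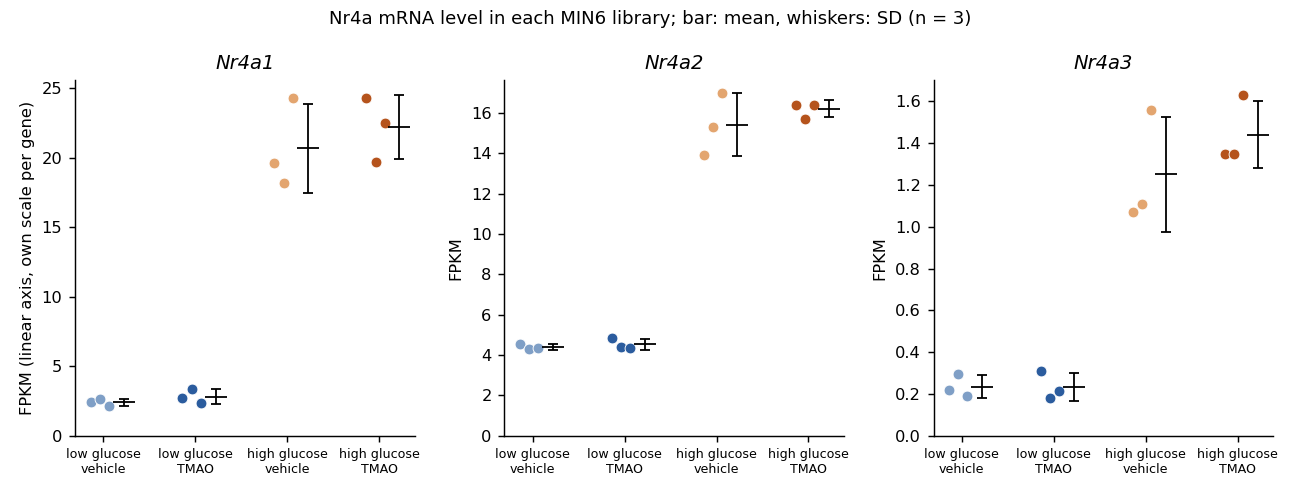
Level in FPKM on a linear axis of Nr4a1, Nr4a2 and Nr4a3 in each of the 12 libraries, grouped by glucose and treatment, with the mean and SD of 3 libraries beside the points. Each gene has its own scale. For every gene all 6 high-glucose libraries lie above all 6 low-glucose libraries, while vehicle and TMAO overlap within each glucose level. Within a treatment, 9.08% (vehicle) and 8.83% (TMAO) of all tested genes were higher in high glucose without overlap.

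Nr4a1, a well-known early responder to cAMP and calcium, was counted on 115, 124 and 98 fragments in the 3 low-glucose vehicle libraries. It was counted on 910, 916 and 1026 fragments in the 3 high-glucose vehicle libraries. In FPKM these were 2.44, 2.62 and 2.12 against 19.6, 18.2 and 24.3. The lowest high-glucose library thus lay far above the highest low-glucose library, and replicate 3 was the highest of its group. With vehicle, Nr4a1 had a log2 fold change of 3.11 (SE 0.15, 95% interval 2.79 to 3.42, adjusted p = 5.2e-09 by edgeR). By size of the rise it ranked 5 among the 16222 tested genes. With TMAO, Nr4a1 went from 2.73, 3.38 and 2.35 FPKM in low glucose to 24.3, 19.7 and 22.5 FPKM in high glucose. Its log2 fold change there was 2.97 (SE 0.14, 95% interval 2.67 to 3.27, adjusted p = 5.29e-09 by edgeR).

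Nr4a2, which in the brain is required for dopaminergic neurons, was the most abundant member in low glucose. Its FPKM values were 4.54, 4.28 and 4.34 in low glucose with vehicle and 13.9, 15.3 and 17.0 in high glucose with vehicle. The CV of Nr4a2 with vehicle was 3.18% in low glucose, against 5.44% from counting alone, and 10.1% in high glucose. With TMAO, Nr4a2 was at 4.86, 4.39 and 4.37 FPKM in low glucose and at 16.4, 15.7 and 16.4 FPKM in high glucose, with CVs of 6.1% and 2.57%, so neither glucose level was the more variable under both treatments. The log2 fold change of Nr4a2 was 1.81 with vehicle (SE 0.072, 95% interval 1.66 to 1.96, adjusted p = 5.47e-18 by edgeR). With TMAO it was 1.83 (SE 0.072, 95% interval 1.69 to 1.98, adjusted p = 3.16e-18 by edgeR). These were the smallest rises of the family and had the smallest standard errors.

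Nr4a3, a receptor closely related to Nr4a1 and known with it for roles in muscle metabolism and in blood cells, was the rarest member. It was counted on 25, 34 and 21 fragments in low glucose with vehicle, and on 120, 135 and 160 in high glucose with vehicle. With TMAO the counts were 36, 21 and 24 in low glucose and 136, 181 and 167 in high glucose. No low-glucose library reached the lowest high-glucose library, although its spread in low glucose was wide, with a CV in FPKM of 23.9% with vehicle and 28.7% with TMAO. Counting alone gives about 19.4% and 19.2% at those depths. Its levels were 0.219, 0.297 and 0.188 FPKM in low glucose with vehicle, against 1.07, 1.11 and 1.56 FPKM in high glucose. With TMAO they were 0.310, 0.180 and 0.214 FPKM against 1.35, 1.35 and 1.63 FPKM. The log2 fold change of Nr4a3 was 2.40 with vehicle (SE 0.20, 95% interval 1.98 to 2.82, adjusted p = 6.14e-10 by edgeR). With TMAO it was 2.61 (SE 0.20, 95% interval 2.20 to 3.02, adjusted p = 6.69e-11 by edgeR). These fold changes are from counts; on log2(FPKM + 1) in limma they shrank to 0.86 and 0.98, since the pseudocount is near this gene's level.

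None of the 3 genes was called for TMAO against vehicle, in low or in high glucose. For each gene the vehicle and TMAO libraries overlapped at both glucose levels. In low glucose 0 of the 3 members were called, beside 0.00616% of all tested genes (1 gene, Egr1). In high glucose 0 of 3 were called by edgeR, beside 0% of all tested genes, where 868 genes had an unadjusted p under 0.05 and DESeq2 called 1 (Gapdh, named here after its values were seen). With all 12 libraries and the filter on low counts, no member had an unadjusted p under 0.05 for TMAO by edgeR, and DESeq2 called no member. The estimates in high glucose moved both ways as single libraries were left out. They were smallest at 0.013 for Nr4a1 without high-glucose vehicle replicate 2, and at 0.0039 for Nr4a2 and 0.12 for Nr4a3 without high-glucose vehicle replicate 1. They were largest without high-glucose vehicle replicate 3, the highest library of its group for each gene. Without that library the log2 fold change with TMAO went from 0.10 to 0.23 for Nr4a1, from 0.070 to 0.15 for Nr4a2 and from 0.21 to 0.40 for Nr4a3. Each of these then had an unadjusted p under 0.05, but the adjusted p was 0.939 for all 3 by edgeR.

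**Figure D2:**
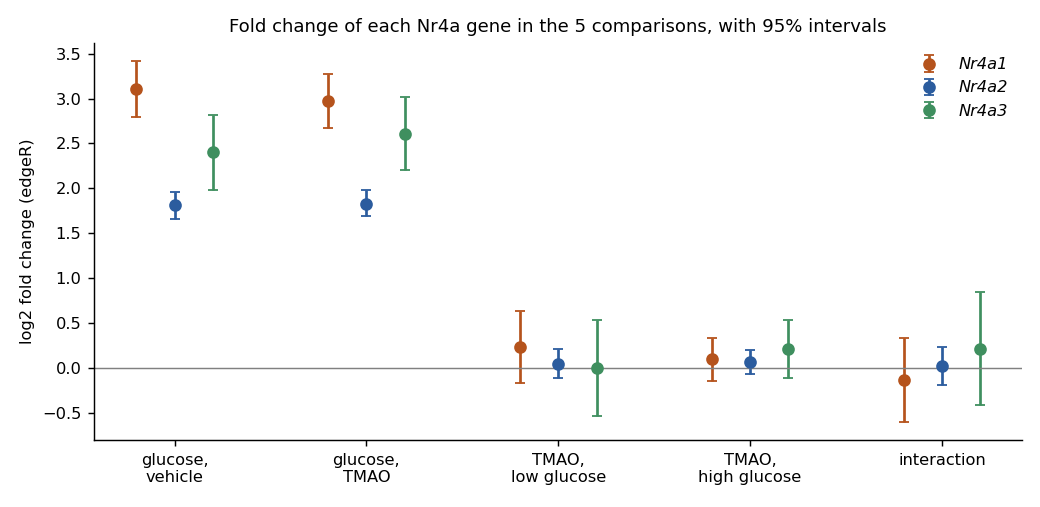
Log2 fold change of each Nr4a gene by edgeR in the 5 comparisons, with 95% intervals: high against low glucose with vehicle and with TMAO, TMAO against vehicle in low and in high glucose, and the interaction. The lowest bound of any glucose interval is 1.66, and every TMAO and interaction interval includes 0.

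The 95% intervals, from the fit of all 12 libraries, show how precisely the TMAO effect was measured. For Nr4a1, the level with TMAO was 1.18 times that with vehicle in low glucose (95% interval 0.892 to 1.56, adjusted p = 1.0 by edgeR). On the log2 scale this was 0.24, which became 0.085 without low-glucose TMAO replicate 2 and 0.35 without low-glucose TMAO replicate 3. In high glucose it was 1.07 times (95% interval 0.908 to 1.27, adjusted p = 0.951 by edgeR). The bounds were tightest for Nr4a2, at 0.924 to 1.16 times in low glucose and 0.959 to 1.15 times in high glucose. They were widest for Nr4a3, at 0.690 to 1.45 times in low glucose and 0.924 to 1.45 times in high glucose.

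The glucose response itself was also compared between treatments, as the interaction of TMAO and glucose. The rise with TMAO was 0.910 times the rise with vehicle for Nr4a1 (95% interval 0.658 to 1.26), 1.01 times for Nr4a2 (0.877 to 1.17) and 1.16 times for Nr4a3 (0.751 to 1.79). All 3 adjusted p-values were 1.0 by edgeR, and 0 members were called, beside 0% of all tested genes. Over all genes 545 interactions had an unadjusted p under 0.05, and DESeq2 called 0. No member was among those with an unadjusted p under 0.05. The directions were mixed: the point estimate was lower with TMAO for Nr4a1 and higher for Nr4a3, both within their intervals. On the log2 scale the interaction of Nr4a3 was 0.22, and it became 0.012 without low-glucose vehicle replicate 2 and 0.47 without low-glucose TMAO replicate 1.

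The members did not rise in proportion, so the make-up of the family differed between glucose levels. In low glucose the order by FPKM was Nr4a2, Nr4a1, Nr4a3 in all 6 libraries, and in high glucose it was Nr4a1, Nr4a2, Nr4a3 in all 6. The summed FPKM of the 3 genes was 7.31 ± 0.522 (SD, n = 6) in low glucose and 38.6 ± 3.75 (SD, n = 6) in high glucose, over both treatments. Nr4a1 made up 31.9% to 42.5% of that sum in low glucose and 52.6% to 57.7% in high glucose. Nr4a2 fell back from 55.3% to 65.3% of the sum to 39.1% to 44.2%, while its own level rose. Nr4a3 stayed between 2.26% and 4.13% of the sum in all 12 libraries. The order in high glucose rests on dividing by gene length: in fragments counted, Nr4a1 was 0.724 to 0.90 times Nr4a2 in the 6 high-glucose libraries, and 0.298 to 0.468 times in the 6 low-glucose libraries.

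**Figure D3:**
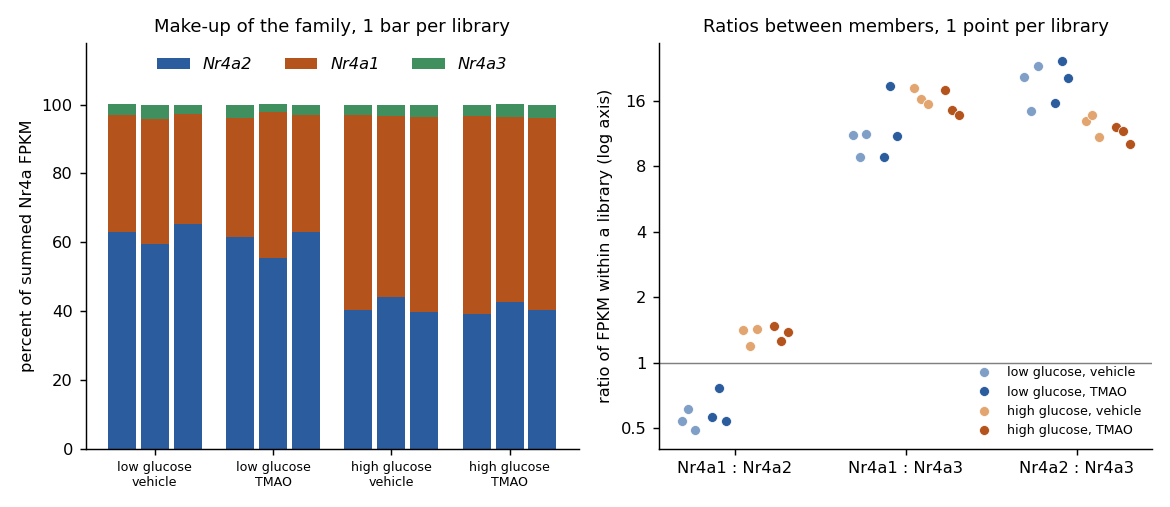
Left, the percent of the summed Nr4a FPKM taken by each gene, with 1 bar per library in the 4 conditions. Right, the ratio of FPKM between each pair of genes within a library on a log axis, with 1 point per library. Nr4a1 : Nr4a2 is below 1 in all low-glucose libraries and above 1 in all high-glucose libraries.

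The ratio of 2 members within a library does not depend on library size, and its difference between glucose levels was tested by an exact two-sided permutation test with labels permuted within treatment. The test has 400 arrangements, so the smallest p it can give is 0.005, and the 6 ratio tests were adjusted together. The ratio of Nr4a1 to Nr4a2 was 0.489 to 0.768 in low glucose and 1.19 to 1.48 in high glucose. High glucose thus raised it 2.33-fold on the log2(FPKM + 0.01) scale (exact p = 0.005, adjusted p = 0.015), with no overlap between the 6 and 6 libraries. The ratio of Nr4a2 to Nr4a3 was 14.4 to 24.4 in low glucose and 10.1 to 13.8 in high glucose. It fell to 0.632 times its low-glucose level (exact p = 0.005, adjusted p = 0.015), again without overlap, but with a pseudocount of 0.1 FPKM the adjusted p was 0.06. The ratio of Nr4a1 to Nr4a3 was 8.81 to 18.8 in low glucose and 13.8 to 18.4 in high glucose, so the libraries overlapped. Its 1.47-fold rise had an exact p of 0.015 and an adjusted p of 0.03, and the call was lost when any library other than low-glucose TMAO replicate 2 or high-glucose TMAO replicate 3 was left out (adjusted p from 0.06 to 0.1). Leaving out a library also reduces the number of arrangements. TMAO against vehicle moved the 3 ratios by 1.07, 1.04 and 0.969 times, with adjusted p-values of 0.54, 0.85 and 0.85 in exact permutation tests within glucose level.

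Other nuclear receptor genes were tested in the same fit. Of 46 other receptors of the superfamily, 28 passed the filter on low counts, and 2 were called in a glucose comparison, both lower in high glucose, beside 4.85% of all tested genes called in at least 1 of the glucose comparisons. That edgeR called 0 of the 28 higher says little beside the 1.99% and 2.0% of all tested genes called higher with vehicle and with TMAO, and it depended on the fit: DESeq2 called Nr1h2 higher, and edgeR with a replicate block called Nr1h2 and Rora higher, both named here after their values were seen. Rara, a retinoic acid receptor, fell from 6.41 to 5.02 mean FPKM with vehicle, a log2 fold change of -0.35 (SE 0.076, adjusted p = 0.00444 by edgeR). Nr1d1, a circadian repressor also called Rev-erbα, fell from 25.8 to 21.1 mean FPKM, a log2 fold change of -0.29 (SE 0.067, adjusted p = 0.00991 by edgeR). Both also fell with glucose in TMAO-treated cells, at adjusted p-values of 0.00451 and 0.0188 by edgeR.

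**Figure D4:**
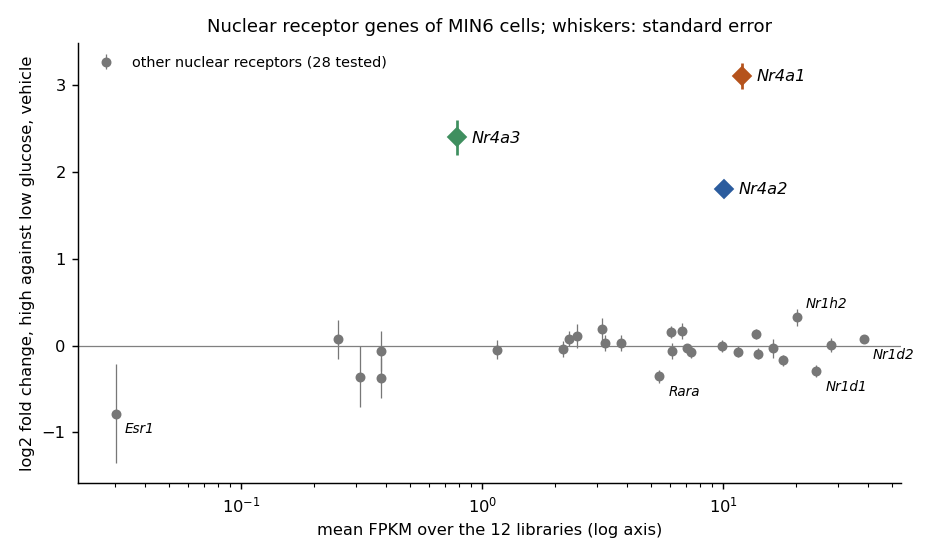
Log2 fold change with glucose in vehicle-treated cells, with its standard error, against the mean FPKM over 12 libraries on a log axis, for the 3 Nr4a genes and 28 other nuclear receptor genes that were tested. The Nr4a genes lie at 1.81 to 3.11, and the other receptors between -0.78 and 0.33.

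The median log2 fold change of the 28 receptors was -0.03 with vehicle and -0.07 with TMAO, beside 0.0021 and 0.0012 for all tested genes. The most abundant receptors that were not called were Nr1d2, the relative of Nr1d1, at 38.2 mean FPKM, Rxrb, a retinoid X receptor, at 28.0, and Nr1h2, an oxysterol receptor, at 20.2. In low glucose with vehicle, Nr4a1 at 2.40 mean FPKM and Nr4a2 at 4.39 were below these 3. In high glucose with vehicle, Nr4a1 at 20.7 mean FPKM was near Nr1d1 at 21.1, while Nr4a3 at 1.25 stayed low. The 18 receptors that were not tested had mean levels of 0.231 FPKM or less.

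Genes of the signalling arms that can act on Nr4a promoters were also looked up, and the largest changes were those of Sik1 and Crem. Both are listed in the cAMP arm and again among the immediate-early genes below. Whether any arm acted on the Nr4a genes here was not tested. Of 15 genes of CREB and CRTC signalling, all tested, 3 (20%) were called in a glucose comparison, beside 4.85% of all tested genes. Sik1, a kinase that keeps CRTC coactivators out of the nucleus and is itself a CREB target, rose from 1.68 to 22.9 mean FPKM with vehicle, a log2 fold change of 3.77 (SE 0.081, adjusted p = 6.49e-25 by edgeR). Crem, whose gene also makes the repressor ICER from an inner promoter, rose from 3.45 to 7.17 mean FPKM, a log2 fold change of 1.05 (SE 0.11, adjusted p = 2.02e-05 by edgeR). Sik3, a relative of Sik1, fell with glucose in TMAO-treated cells by 0.18 on the log2 scale (adjusted p = 0.0286 by edgeR) and had an adjusted p of 0.0854 with vehicle. Whether these effects differ between treatments is the interaction, in which edgeR and DESeq2 called 0 of the 15 and 1 had an unadjusted p under 0.05. Creb1 itself was at 5.48 mean FPKM in low and 5.49 in high glucose with vehicle. The most abundant genes of the arm that were not called were Prkar1a at 229 mean FPKM, Prkaca at 72.4 and Prkar2a at 23.3, all subunits of protein kinase A. The median log2 fold change of the 15 genes was -0.0049 with vehicle and 0.0033 with TMAO.

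Of 25 genes of the calcium arm through calcineurin, CaM kinases and MEF2, 24 were tested and 1 was called. Mef2d, a MEF2 factor known to drive Nr4a1 in T cells, rose from 23.8 to 30.7 mean FPKM with vehicle, a log2 fold change of 0.37 (SE 0.046, adjusted p = 2e-06 by edgeR). In TMAO-treated cells it rose with glucose by 0.24 on the log2 scale (adjusted p = 0.00128 by edgeR). The abundant genes of this arm that were not called were the calcineurin subunits Ppp3r1, at 34.2 mean FPKM, and Ppp3cb, at 17.6, and the calcineurin inhibitor Rcan1, at 16.9. Of 13 genes of the ERK and SRF arm, 1 was called: Mkl1, an SRF coactivator, fell with glucose in TMAO-treated cells by 0.39 on the log2 scale (adjusted p = 0.00358 by edgeR), with an adjusted p of 0.0602 with vehicle. Srf was at 25.0 and 25.5 mean FPKM in low and high glucose with vehicle, and the kinases Mapk3 and Map2k2, at means of 106 and 35.7 FPKM, were not called. The shares called in these lists, 4.17% and 7.69%, stand beside 4.85% of all tested genes.

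Of 12 partners and coregulators of the Nr4a receptors, 11 were tested and 1 (9.09%) was called in a glucose comparison, beside 4.85% of all tested genes. Rxra, the retinoid X receptor that pairs with Nr4a1 and Nr4a2, was at 18.9 mean FPKM in low and 16.8 in high glucose with vehicle, with an adjusted p of 0.182 by edgeR. It was not called in the main fit, but edgeR with a replicate block called it lower in high glucose. Hdac1, Kdm1a and Hdac3, which belong to corepressor complexes, were the most abundant that were not called, at 54.1, 29.5 and 28.4 mean FPKM. The list's median log2 fold change was -0.0087 with vehicle and -0.03 with TMAO.

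Genes that Nr4a receptors are known to regulate in other systems were also looked up. Of 25, taken from liver and muscle metabolism, the adrenal, dopaminergic neurons, cell cycle and cell death, 17 were tested and 0 were called by edgeR in either glucose comparison, while 3 had an unadjusted p under 0.05 in each and DESeq2 called 0. With 4.85% of all tested genes called, a count of 0 among 17 says nothing particular about this list. Fbp2, the muscle fructose-bisphosphatase, was at 180 and 191 mean FPKM in low and high glucose with vehicle. Cdkn1a, a cell cycle inhibitor, was at 84.3 and 92.0, and Th, the tyrosine hydroxylase of dopamine synthesis, at 67.0 and 69.2. The median log2 fold change was 0.05 with vehicle. The liver targets G6pc and Pck1 and the muscle gene Pygm had 0 counts in every library, which allows up to 3 counts in each.

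The Nr4a genes stood among other immediate-early genes, most of which also rose. Of 30 such genes, 29 were tested and 22 were called in a glucose comparison: with vehicle 19 rose and 2 fell, and with TMAO 17 rose and 3 fell, beside 3.30% and 3.64% of all tested genes called. The list's median log2 fold change was 0.93 with vehicle and 0.84 with TMAO, and each of the 3 Nr4a genes was above it. The largest rises with vehicle were those of Sik1, given above, Fos at 2.76, Egr1 at 2.59, Fosl2 at 2.50, Fosb at 1.93 and Egr4 at 1.89 on the log2 scale. By point estimate Nr4a1 came between Sik1 and Fos, and Nr4a3 between Fosl2 and Fosb. Nr4a2 came just below Dusp1, at 1.85. All of these had adjusted p-values under 0.05 by edgeR with vehicle, Egr4 at 0.0469, and Egr4 was not called with TMAO (adjusted p = 0.321). These AP-1 and Egr genes encode transcription factors of other families.

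**Figure D5:**
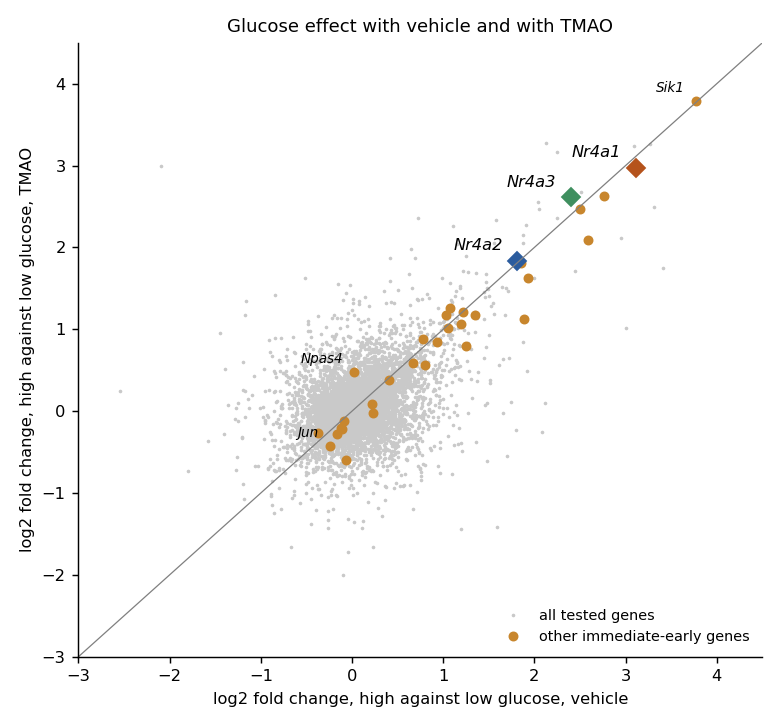
Log2 fold change with glucose in TMAO-treated cells against that in vehicle-treated cells, from separate libraries, for all tested genes (grey), 29 immediate-early genes (orange) and the 3 Nr4a genes (diamonds), with the line of equal change. The Nr4a genes lie close to the line at 1.81 to 3.11 with vehicle, and 1 tested gene lies outside the axes.

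Not all immediate-early genes moved with the Nr4a genes. Jun fell by 0.25 on the log2 scale with vehicle (adjusted p = 0.0282 by edgeR) and Klf6, a zinc-finger factor, fell by 0.37 (adjusted p = 0.00101 by edgeR). The most abundant that were not called were Jund at 4.43 mean FPKM, Arc at 3.69 and Klf2 at 1.92. Npas4, which in neurons and β-cells is induced by calcium entry, was at 1.45 mean FPKM in low and 1.47 in high glucose with vehicle (adjusted p = 0.987 by edgeR). With TMAO it was at 1.32 and 1.84, with an unadjusted p of 0.0177 and an adjusted p of 0.204 by edgeR. Jun, Klf6 and Npas4 were picked here after their values were seen. In low glucose TMAO raised 1 gene of this list, Egr1, with an adjusted p of 0.00207 by edgeR, while for Nr4a1 in the same comparison it was 1.0. Of the 29 tested genes of the list, 7 (24.1%) had an unadjusted p under 0.05 in low glucose, all higher with TMAO, beside 2.2% of all tested genes. In high glucose it was 5 of the 29, beside 868 of all tested genes. There Fos, Fosb and Btg2 were higher with TMAO, and Ier5 and Myc were lower. Genes that move together across libraries are not separate results, and of this list only Egr1 was called for TMAO.

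The genes whose pattern was most like each member were taken by Pearson's r of log2 CPM over the 12 libraries, among genes with a mean of at least 50 counts. The libraries form a low and a high glucose cluster of 6, so each r mostly measures that step, and it is given as a description. For Nr4a1 they were Fam46a (r = 0.997), Sik1, Cebpd, B230216N24Rik and Dusp1, each of the last 4 at 0.995. Cebpd encodes a basic leucine zipper factor that rose by 3.26 on the log2 scale with vehicle, and Dusp1 a phosphatase that switches off MAP kinases and rose by 1.85. For Nr4a2 they were Fosl2 (r = 0.998), Cebpd, Neurod1, Sik1 and Errfi1, an inhibitor of the EGF receptor. Neurod1, a β-cell transcription factor, rose from 83.8 to 125 mean FPKM with vehicle, so a gene at a much higher level and with a log2 fold change of 0.58 followed the same step. For Nr4a3 they were Tob1, an antiproliferative factor (r = 0.988), Nr4a2 itself (0.987), Fosl2, Rgs2, a regulator of G protein signalling, and Stk35, a kinase.

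Between the members, r over 12 libraries was 0.994 for Nr4a1 and Nr4a2, 0.979 for Nr4a1 and Nr4a3, and 0.987 for Nr4a2 and Nr4a3. Within the 6 high-glucose libraries the same pairs gave 0.755, 0.760 and 0.863, and within the 6 low-glucose libraries 0.146, 0.0127 and 0.459. In high glucose with vehicle, replicate 3 was the highest library for all 3 members. These values within 6 libraries are descriptions, without a test, and in low glucose counting error is a large part of the spread of Nr4a3.

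Of the genes next to the members on the chromosome, 7 were tested and none was called with glucose, which says little beside 4.85% of all tested genes. The nearest tested neighbours of Nr4a1 were Grasp, with 71 to 108 counts per library, and Atg101, an autophagy gene that begins 9509 bases downstream. With vehicle their log2 fold changes with glucose were 0.17 and 0.03, at adjusted p-values of 0.747 and 0.937 by edgeR. BB557941, a non-coding transcript 3476 bases upstream of Nr4a2 on the same strand, had a log2 fold change of -0.09 (adjusted p = 0.815 by edgeR). Stx17, a syntaxin gene downstream of Nr4a3, had 0.07 (adjusted p = 0.75 by edgeR). A gene named by the sequencing provider and lying 1660 bases upstream of Nr4a3 on the other strand had 33 to 52 counts and a log2 fold change of 0.26 (adjusted p = 0.697 by edgeR).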

How the data were processed

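RNA-seq libraries from MIN6 cells, 3 for each of 4 conditions, were grouped by the sample labels. The authors deposited fragment counts per gene without normalization, and FPKM values. Each FPKM is the gene's count over its exonic length and over a library total, which lies within 1.37% of the summed counts. The submitters' processing notes name HISAT2 2.0.5, featureCounts 1.5.0-p3, DESeq2 1.16.1 and mm10. Whether counting used strand is not given in the sources used here. Each culture is called a biological replicate, and no source says more, so p-values measure the spread between these samples.

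The members and gene lists were chosen with earlier results of these data known. Counts were fitted in R 4.3.3 with edgeR 4.0.16 (filterByExpr, TMM, robust quasi-likelihood F test, all 12 libraries, 4 condition means), with Benjamini-Hochberg adjustment over 16222 genes. Within-library log2 ratios of FPKM, with a pseudocount of 0.01, were tested by exact permutation in Python 3.11.15. The edgeR fit and the permutation test were tried on simulated data. No pair of libraries within a condition was as alike as repeated draws from 1 library (median chi-square relative to such draws 1.78 to 3.46).

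Genes named were the members, up to 6 called genes of each list by size with vehicle, up to 3 abundant genes not called, any list gene called for TMAO, the 5 most alike each member, and neighbours. Marker genes were used to check the cell type. Alternatives were other size factors and the Wald test (both from DESeq2 1.42.0), an unfiltered fit, a minimum of 10 counts in all libraries, fits of a comparison's own libraries, a replicate block, limma 3.58.1 on log2 FPKM with 1 or 0.1 added, leaving out each library, and a ratio pseudocount of 0.1. Fold changes with a pseudocount understate low genes. At this depth counting alone gives Nr4a3 in low glucose a CV of 19.2% to 19.4%. Some genes that the rule would name are not reported here.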

Additional observations from a re-analysis of the deposited data

How the results depend on the processing

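In the glucose comparisons, all 3 members kept their direction and call under the 20 alternatives of each, with log2 fold changes of 2.61 to 3.19 for Nr4a1, 1.60 to 1.88 for Nr4a2 and up to 2.87 for Nr4a3, whose lowest values were 0.86 with vehicle and 0.98 with TMAO from limma on log2(FPKM + 1). No TMAO or interaction result of a member was called under any alternative. Without high-glucose vehicle replicate 3, TMAO in high glucose reached its highest values of 0.23, 0.15 and 0.40 for Nr4a1, Nr4a2 and Nr4a3, against lowest values of 0.013, 0.0039 and 0.12 without another vehicle library, with unadjusted edgeR p under 0.05 and an adjusted p of 0.939. Without a filter, Nr4a1 with TMAO in low glucose had an unadjusted p under 0.05 and an adjusted p of 1.0. Some values near 0 changed sign when 1 library was left out. Those ranges were -0.25 to 0.016 for the interaction of Nr4a1, -0.00090 to 0.076 for Nr4a2 with TMAO in low glucose, -0.046 to 0.096 for the interaction of Nr4a2, and -0.26 to 0.20 for Nr4a3 with TMAO in low glucose. Ranges that kept their sign were 0.085 to 0.35 for Nr4a1 with TMAO in low glucose and 0.012 to 0.47 for the interaction of Nr4a3. With 1 library left out, the TMAO effect on the log2 ratio of Nr4a1 to Nr4a2 ranged from 0.024 to 0.15. It ranged from -0.093 to 0.17 for Nr4a1 to Nr4a3 and from -0.14 to 0.035 for Nr4a2 to Nr4a3. The glucose effect on the ratio of Nr4a1 to Nr4a3 ranged from 0.45 to 0.71 and lost its call without 10 of the libraries in turn. With a pseudocount of 0.1 FPKM, the log2 ratio of Nr4a2 to Nr4a3 fell by 0.31 with glucose and lost its call.

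With the replicate number as a block, the 3 glucose effects on ratios kept their values, at 1.22, 0.56 and -0.66, but had adjusted p-values of 0.0938. That permutation swaps only same-numbered libraries, and its smallest p is 0.0312. The block changed no call of a member in edgeR (Nr4a1 3.10, Nr4a2 1.81 and Nr4a3 2.39 with vehicle), and over all genes it raised the calls from 536 to 717 with vehicle and from 591 to 783 with TMAO. It also raised the genes called from 2 to 6 among other nuclear receptors, and from 1 to 2 both in the ERK and SRF arm and among partners and coregulators. Deviations of same-numbered libraries correlated at -0.086 to 0.404, over 0.1 in 6 of 18 pairs, and 10 of 12 libraries correlated best with a library of their own number, a hint from the data and not from the design. DESeq2's Wald test called 3 other nuclear receptors.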
